A study of Rattus norvegicus with 8 samples.

Results

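The genes of tight junctions, desmosomes and adherens junctions were followed in the cervix of pregnant rats after a bacterial stimulus. The set was taken by symbol: the numbered claudins, the desmocollins Dsc1 to Dsc3, the desmogleins Dsg1 to Dsg4, the plakophilins Pkp1 to Pkp4, the numbered zonula occludens (Tjp) genes, and 16 further names (Dsp, Jup, Ocln, Marveld2, Marveld3, Cgn, Cdh1, Cdh3, Epcam, Ctnna1, Ctnnb1, Ctnnd1, Nectin1, Nectin2, Nectin4 and Perp). It held 53 of the 29884 gene symbols in the table. The LPS group received lipopolysaccharide, a component of Gram-negative bacterial envelopes that triggers inflammation, at 100 µg/kg into the peritoneal cavity on gestational day 17, and the PBS group received the same volume of phosphate-buffered saline. All animals were pregnant Sprague-Dawley rats labelled WT, the cervix was taken 12 hours after the injection, and each group had 4 libraries that the design text calls biological replicates. The series presents the LPS group as a model of preterm birth.

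Epithelial cells are held together by 3 kinds of junction that sit in order below the cell apex. In the tight junction, claudins and the MARVEL proteins occludin and tricellulin form strands that seal the gap between cells, and the zonula occludens proteins and cingulin tie them to actin. In the adherens junction, classical cadherins bind beta-, alpha- and p120-catenin, with nectins beside them. In the desmosome, desmogleins and desmocollins bind plakoglobin (Jup), plakophilins and desmoplakin (Dsp), which anchors keratin filaments. The cervix carries a stratified squamous epithelium towards the vagina and a columnar, mucus-forming one in its canal, and both act as a barrier below the fetal membranes during pregnancy.

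Levels are given as CPM, counts brought to a common library size with trimmed-mean (TMM) scaling, and levels of different genes are not compared, since counts also depend on transcript length. Changes are log2 fold changes of LPS over PBS with their standard error (SE), and adjusted p-values are those of edgeR's quasi-likelihood test with Benjamini-Hochberg adjustment over 16117 genes. Calls needed an adjusted p below 0.05. Of the 53 members, 43 passed the filter on low counts and were tested. Library totals lay between 39580706 and 40408153 counts in LPS and between 33191039 and 40634384 in PBS.

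12 hours after LPS, 6 junction genes were lower and 1 was higher, and most of the core components were not called. The desmosome linkers Dsp and Jup, the MARVEL protein gene Marveld3 and the claudins Cldn23, Cldn5 and Cldn19 fell, and Nectin2 rose. The 7 called members were 16.3% of the 43 tested, beside 16.9% of all genes tested. By direction, 14.0% of the tested members were lower, beside 7.45% of all genes, and 2.33% were higher, beside 9.49% of all genes. Log2 fold changes were negative in 35 and positive in 8 of the tested members, with a median of -0.38, whereas the median over all genes tested was 0.01. The groups did not overlap for 10 members, 23.3% of those tested, beside 23.4% of all genes: 7 were lower (16.3%, beside 10.5%) and 3 higher (6.98%, beside 12.9%). The count of lower members depended on single libraries: it was 1 without PBS replicate 2 or without LPS replicate 3, 2 without LPS replicate 4, 3 without PBS replicate 4 and 9 without PBS replicate 1. Calls over all genes in either direction, 2729 with all libraries, were 1467, 1878, 2368, 2160 and 2584 in those 5 fits in the same order. That of higher members was 1 whichever library was left out.

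**Figure D1:**
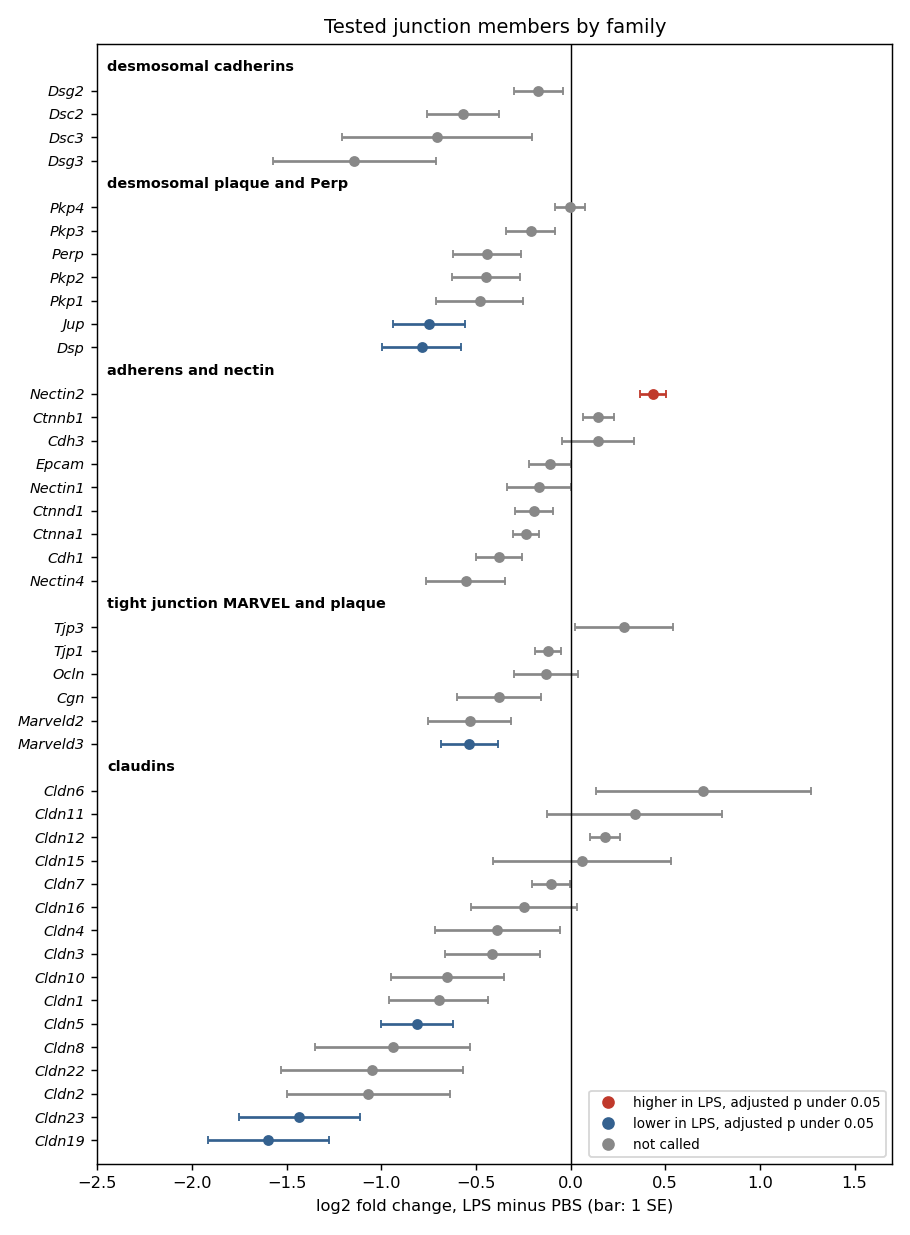
Log2 fold change of 42 of the 43 tested members, LPS minus PBS, with bars of 1 SE (4 libraries per group), sorted within 5 families. Blue points (Dsp, Jup, Marveld3, Cldn23, Cldn5 and Cldn19) were called lower and the red point (Nectin2) higher at an adjusted p under 0.05, and grey points were not called.

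The promoters of the called members that RefSeq's table holds are shown to give the sequence around the transcription start of the genes that moved. Each window runs from 250 bases before the start to 50 bases after it, 5′ to 3′ on the strand of the gene, in the build GRCr8. Capitals mark the E-box CAGGTG on either strand, the element that repressors of the Snai and Zeb families bind in the promoter of Cdh1 in mouse and human.
Dsp, GRCr8 chr17:26877072-26877371, minus strand: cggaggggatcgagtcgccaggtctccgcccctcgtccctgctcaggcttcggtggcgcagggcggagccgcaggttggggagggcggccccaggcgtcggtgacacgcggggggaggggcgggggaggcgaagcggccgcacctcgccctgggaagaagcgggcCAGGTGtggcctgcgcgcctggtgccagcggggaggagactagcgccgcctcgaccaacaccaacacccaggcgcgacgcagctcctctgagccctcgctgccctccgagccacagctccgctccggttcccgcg
Jup, GRCr8 chr10:85827380-85827679, minus strand: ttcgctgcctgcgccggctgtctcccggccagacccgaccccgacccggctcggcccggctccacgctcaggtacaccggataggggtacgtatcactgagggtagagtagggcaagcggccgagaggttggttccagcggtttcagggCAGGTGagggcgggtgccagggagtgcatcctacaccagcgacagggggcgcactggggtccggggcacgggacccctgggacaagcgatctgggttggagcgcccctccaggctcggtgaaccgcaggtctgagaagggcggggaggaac
Cldn5, GRCr8 chr11:95718549-95718848, minus strand: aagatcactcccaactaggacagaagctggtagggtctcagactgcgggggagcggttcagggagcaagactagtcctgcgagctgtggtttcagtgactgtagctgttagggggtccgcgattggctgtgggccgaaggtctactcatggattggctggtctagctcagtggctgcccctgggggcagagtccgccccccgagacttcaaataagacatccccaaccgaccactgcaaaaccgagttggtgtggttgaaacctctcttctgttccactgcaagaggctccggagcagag
Cldn19, GRCr8 chr5:138148325-138148624, plus strand: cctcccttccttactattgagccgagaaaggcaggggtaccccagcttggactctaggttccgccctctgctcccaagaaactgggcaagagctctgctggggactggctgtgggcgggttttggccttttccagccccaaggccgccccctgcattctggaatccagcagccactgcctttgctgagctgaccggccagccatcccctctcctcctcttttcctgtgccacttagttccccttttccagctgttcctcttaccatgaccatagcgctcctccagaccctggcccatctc

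The Dsp window held this E-box 85 bases and the Jup window 101 bases before the start, and the other two windows did not hold these letters. The table had a promoter for 40 of the 53 members, and 14 of them (35.0%) held CAGGTG or its reverse complement CACCTG, against 18.8% of all 33469 promoters of that length. Besides Dsp and Jup these were Cldn3, Cldn6, Cldn7, Cldn11, Cldn14, Cldn25, Dsc2, Dsg2, Epcam, Ocln, Perp and Tjp3. None of those 12 genes was called by edgeR, and Cldn14 and Cldn25 among them were below the filter and not tested. Of the other strings searched on both strands, the Grainyhead-like element AACNNGTT was in 2 member windows (5.0%, against 4.23% of all), the AP-1 element TGANTCA in 3 (7.5%, against 7.33%), the STAT element TTCNNGGAA in 1 (2.5%, against 4.94%), the TATA box TATAAA in 3 (7.5%, against 14.2%) and the NF-kB element in 0 (against 1.53%). The member shares used a single window per gene symbol, whereas the shares of all promoters counted every window listed. Base composition was not matched between them. These matches describe letters in the windows and show no binding. The strings can overlap one another.

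In the desmosome, Dsp and Jup, which link the cadherins to keratin, were lower, and no desmosomal cadherin was called. Of 7 genes of the desmosomal plaque with Perp, 2 were lower (28.6%, beside 7.45% of all genes tested) and 0 higher. Of 4 tested desmosomal cadherins 0 were called, beside 16.9% of all genes. Dsp, desmoplakin, which tethers keratin filaments to the plaque, had 458, 309, 385 and 450.5 CPM in LPS replicates 1 to 4, against 493, 835, 566 and 871 CPM in PBS replicates 1 to 4. All 4 LPS libraries lay below all 4 PBS libraries, and PBS replicates 2 and 4 were well above PBS replicates 1 and 3. The means were 400.5 ± 69.4 CPM in LPS and 691 ± 189.7 CPM in PBS (SD, n = 4 each), a log2 fold change of -0.79 (adjusted p = 0.037, SE 0.21). Jup, plakoglobin, the catenin shared by desmosomes and adherens junctions, had 260.2, 278, 262 and 229 CPM in LPS replicates 1 to 4, against 289, 539, 383 and 516 CPM in PBS replicates 1 to 4. The LPS libraries lay close together, and the lowest PBS library, replicate 1, was only just above them. Jup averaged 257 ± 20.4 CPM in LPS and 432 ± 117 CPM in PBS (SD, n = 4 each), a log2 fold change of -0.75 (adjusted p = 0.0301, SE 0.19). Dsp missed the threshold whenever PBS replicate 2, PBS replicate 4 or any LPS library was left out, with values of -0.93 to -0.66 when 1 library was left out. Jup missed it without PBS replicate 2 or 4, and also without LPS replicate 1, 3 or 4, with values of -0.90 to -0.62.

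**Figure D2:**
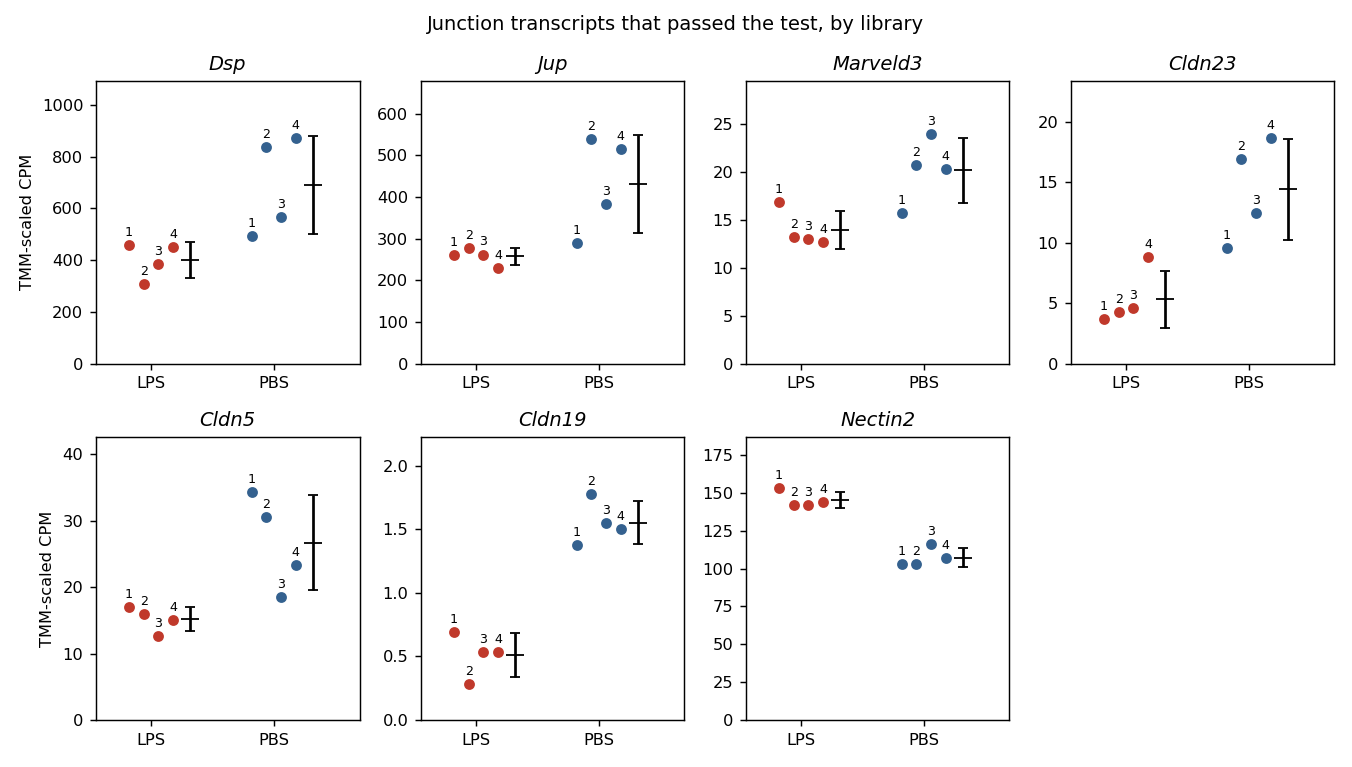
TMM-scaled CPM of the 7 called members in each library, LPS left and PBS right, with replicate numbers above the points and the mean and SD of 4 libraries beside them. Dsp, Jup, Cldn23, Cldn5 and Cldn19 do not overlap between groups, Nectin2 is higher in every LPS library, and Marveld3 overlaps through LPS replicate 1 (16.9 CPM) and PBS replicate 1 (15.7 CPM).

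Epithelial markers differed beside Dsp and Jup. Of 9 tested markers of squamous epithelium 3 were lower (Krt13, Krt1 and Sprr1a), 0 were higher and 6 were not called. Of 10 markers of columnar epithelium 1 was lower (Krt7) and 0 higher. The summed level was 5363 to 6396 CPM in LPS and 7539 to 13518 CPM in PBS for the squamous list and 4225 to 5565 CPM in LPS and 4960 to 7254 CPM in PBS for the columnar list. The squamous sums did not overlap with Krt13 in the list and did without it. Krt13 had 54.3 to 162 CPM in LPS against 1383 to 3536 CPM in PBS, and without it the sums were 5299 to 6342 CPM in LPS and 5931 to 9982 CPM in PBS. Krt15, a keratin of the basal layer, had 1929 to 2285 CPM in LPS against 2464 to 4284 CPM in PBS, without overlap, and just missed the threshold (-0.57, adjusted p = 0.0523), which it passed with RLE or upper-quartile scaling, with the filter of 1 CPM in 4 libraries, with DESeq2, when limma-voom used quality weights and without PBS replicate 1. Krt5 and Krt14, also basal keratins, had log2 fold changes of -0.30 and 0.12 and were not called (edgeR adjusted p = 0.339 and 0.751). Of the squamous list, Krt4 and Ivl fell below the filter on low counts and 1 symbol had no matching row. The part of squamous content in the Dsp and Jup values was not tested beyond the ratios to Epcam, Krt5 and Krt15 given later. In bulk tissue, fewer cells of a type and less RNA per cell cannot be told apart.

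The plakophilins stabilise the plaque from the side and were not called. Pkp1, the plakophilin of stratified epithelia, had 76.1 to 120.4 CPM in LPS against 106 to 189.5 CPM in PBS (-0.48, adjusted p = 0.185), and Pkp2, that of simple epithelia and heart, 15.4 to 21.7 CPM in LPS against 18.8 to 32.4 CPM in PBS (-0.45, adjusted p = 0.126). Pkp2 passed the test without PBS replicate 1 (-0.59, adjusted p = 0.0249). Pkp3, found in most epithelial desmosomes, had a log2 fold change of -0.21 and Pkp4 of -0.002 (edgeR adjusted p = 0.315 and 0.989). Perp, a tetraspan protein needed for desmosomes of stratified epithelia in mouse, had 499, 328, 497 and 449 CPM in LPS replicates 1 to 4, against 493, 697, 495 and 727 CPM in PBS replicates 1 to 4. Its groups overlapped and it was not called (-0.44, adjusted p = 0.134).

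Among the desmosomal cadherins, Dsg3 and Dsc3 are the isoforms that mark the deeper layers of stratified epithelium. Dsg3, the desmoglein of basal and mucosal layers and the target of pemphigus vulgaris antibodies, had 40.9, 14.6, 63.4 and 47.5 CPM in LPS replicates 1 to 4, against 73.1, 129, 53.0 and 113 CPM in PBS replicates 1 to 4. LPS replicates 1, 2 and 4 were below every PBS library and LPS replicate 3 lay inside the PBS range, and the gene was not called by edgeR at a log2 fold change of -1.14 (adjusted p = 0.104, SE 0.43), though DESeq2 called it. Dsc3, its desmocollin counterpart, had 1.10 to 6.41 CPM in LPS against 3.92 to 9.80 CPM in PBS (-0.71, adjusted p = 0.365). LPS replicate 2 held the least of both genes, 14.6 CPM of Dsg3 and 1.10 CPM of Dsc3, and without it the log2 fold change of Dsc3 was -0.39. Dsc2 and Dsg2, the isoforms of all desmosome-bearing tissues, had log2 fold changes of -0.57 (adjusted p = 0.0783, SE 0.19) and -0.17 (adjusted p = 0.383, SE 0.13). Dsc2 passed without LPS replicate 1 (-0.71, adjusted p = 0.0493) and with DESeq2. The isoforms of the cornifying layers were close to absent: Dsc1 had 4 counts in the LPS libraries together and 5 in PBS, Dsg1 29 and 14, and Dsg4, a hair desmoglein, had 0 counts in every library. With 0 counts, levels of up to 0.0734 to 0.0899 CPM per library (3 counts) are allowed, for counting error only.

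Of the 9 members grouped as adherens junction and nectin genes, 1 was higher (11.1%, near the 9.49% of all genes tested) and 0 lower (beside 7.45%). Cdh1, E-cadherin, had 311, 269, 255 and 239 CPM in LPS replicates 1 to 4, against 294, 362, 387 and 356 CPM in PBS replicates 1 to 4. Its lowest PBS library, replicate 1, lay below the highest LPS library, replicate 1, and its log2 fold change was -0.38 (adjusted p = 0.0566, SE 0.12), just short of the threshold. It was called without PBS replicate 1 (-0.46, adjusted p = 0.0277), without LPS replicate 1 (-0.46, adjusted p = 0.0418), with a filter of 1 CPM in 4 libraries, with DESeq2 and when limma-voom weighted the libraries by quality. Ctnna1, alpha-catenin, which couples the complex to actin, had 424, 431, 425 and 423 CPM in LPS replicates 1 to 4, against 479.9, 527, 479.8 and 522 CPM in PBS replicates 1 to 4. The LPS values were nearly identical and all below PBS, with a log2 fold change of -0.24 (adjusted p = 0.0594, SE 0.07), and the same filter, DESeq2 and the weighted limma-voom fit called it.

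Ctnnb1, beta-catenin, which also carries Wnt signals, had 562, 546, 615 and 554 CPM in LPS replicates 1 to 4, against 502, 528, 500.1 and 527 CPM in PBS replicates 1 to 4. Every LPS library was above every PBS library, yet the log2 fold change of 0.15 (adjusted p = 0.227, SE 0.08) was not called. Ctnnd1, p120-catenin, which keeps cadherins at the membrane, had 328 to 406 CPM in LPS against 374 to 441 CPM in PBS (-0.19, adjusted p = 0.211). Cdh3, P-cadherin, the cadherin of basal cells, had 42.0 to 72.1 CPM in LPS against 35.3 to 52.1 CPM in PBS (0.15, adjusted p = 0.641). Epcam, an epithelial adhesion protein that binds claudin 7, had 564, 472, 505 and 482 CPM in LPS replicates 1 to 4, against 455, 566, 567 and 590.4 CPM in PBS replicates 1 to 4. Its groups overlapped almost wholly, with a log2 fold change of -0.11 (adjusted p = 0.533, SE 0.11).

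Nectins are immunoglobulin-like proteins that start cell contacts and recruit cadherins through afadin, and their 3 members differed in direction of estimate. Nectin2, which is also a ligand of the lymphocyte receptor CD226, had 153, 142, 142 and 144 CPM in LPS replicates 1 to 4, against 103, 103, 116 and 107 CPM in PBS replicates 1 to 4. All LPS libraries were above all PBS libraries by a wide margin compared with the spread in either group, and the means were 145 ± 5.22 CPM in LPS and 107 ± 6.27 CPM in PBS (SD, n = 4 each). Its log2 fold change of 0.43 (adjusted p = 0.00524, SE 0.07) was called whichever library was left out, within 0.41 to 0.48. Of the leukocyte markers 7 of 10 were higher and 0 lower, and of the fibroblast markers 4 of 8 were higher and 0 lower. The part of these cells in the Nectin2 value was not tested. Nectin4, a nectin of epithelia, had 47.7 to 68.6 CPM in LPS against 50.3 to 103 CPM in PBS (-0.55, adjusted p = 0.111), and it passed without PBS replicate 1 (-0.74, adjusted p = 0.0121), which held the least of the PBS libraries. Nectin1 had 79.4 to 105 CPM in LPS against 75.7 to 129.5 CPM in PBS (-0.17, adjusted p = 0.547).

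In the tight junction strand and plaque, 1 of 7 genes was lower (14.3%, beside 7.45% of all genes tested) and 0 were higher. Marveld3, a MARVEL protein of the strand, had 16.9, 13.2, 13.0 and 12.7 CPM in LPS replicates 1 to 4, against 15.7, 20.8, 24.0 and 20.3 CPM in PBS replicates 1 to 4. LPS replicate 1 lay above PBS replicate 1 and the other LPS libraries below all of PBS, with means of 13.9 ± 1.96 CPM in LPS and 20.2 ± 3.41 CPM in PBS (SD, n = 4 each). Its log2 fold change was -0.54 (adjusted p = 0.042, SE 0.15), and it missed the threshold when any library but the first of each group was left out. Its relative Marveld2, tricellulin, which seals the corners where 3 cells meet, had 6.91 to 12.6 CPM in LPS against 10.6 to 17.5 CPM in PBS (-0.53, adjusted p = 0.127). Ocln, occludin, had 83.9, 63.5, 52.5 and 79.8 CPM in LPS replicates 1 to 4, against 59.8, 82.5, 75.6 and 88.3 CPM in PBS replicates 1 to 4. Its groups overlapped, and the log2 fold change was -0.13 (adjusted p = 0.641, SE 0.17).

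The zonula occludens scaffolds bind claudin tails on one side and actin on the other. Tjp1, ZO-1, had 165, 158, 160.1 and 152 CPM in LPS replicates 1 to 4, against 165, 167, 176 and 182 CPM in PBS replicates 1 to 4. The spread within each group was small, the ranges met between LPS replicate 1 and PBS replicate 1, and the log2 fold change of -0.12 (adjusted p = 0.263, SE 0.07) was not called. Tjp3, ZO-3, had 85.5 to 156 CPM in LPS against 58.7 to 123 CPM in PBS (0.28, adjusted p = 0.488). Cgn, cingulin, which links the plaque to myosin, had 39.8 to 79.7 CPM in LPS against 61.8 to 90.6 CPM in PBS (-0.38, adjusted p = 0.261).

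Of 23 claudin rows, 16 were tested, 3 were lower (18.8% of those tested, beside 7.45% of all genes) and 0 were higher. Cldn23, a claudin found in gut epithelium among other tissues, had 3.66, 4.25, 4.58 and 8.83 CPM in LPS replicates 1 to 4, against 9.55, 16.9, 12.5 and 18.7 CPM in PBS replicates 1 to 4. The highest LPS library, replicate 4, was just below the lowest PBS library, replicate 1. The means were 5.33 ± 2.36 CPM in LPS and 14.4 ± 4.14 CPM in PBS (SD, n = 4 each), a log2 fold change of -1.43 (adjusted p = 0.0192, SE 0.32), and the call was lost without PBS replicate 2 or LPS replicate 3, with values of -1.79 to -1.28.

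Cldn5, the claudin of endothelial cells that seals the blood-brain barrier, had 17.0, 16.0, 12.7 and 15.0 CPM in LPS replicates 1 to 4, against 34.4, 30.5, 18.5 and 23.3 CPM in PBS replicates 1 to 4. All LPS libraries were below PBS, where replicates 1 and 2 were the highest. Its log2 fold change was -0.81 (adjusted p = 0.0242, SE 0.19), which missed the threshold when PBS replicate 2 was left out, or LPS replicate 3 or 4. It also missed it without both PBS replicate 1 and LPS replicate 2, and when limma-voom used quality weights. Of 10 endothelial markers, 1 was lower (Emcn, endomucin, -0.83, adjusted p = 0.0375) and 0 were higher. The summed endothelial level was 441 to 666 CPM in LPS and 389.7 to 860.1 CPM in PBS. Pecam1 and Cdh5, also in that list, had log2 fold changes of -0.07 and -0.12 and were not called (edgeR adjusted p = 0.877 and 0.807). Within a library, Cldn5 counts were 6.10 to 13.1% in LPS and 12.6 to 19.7% in PBS of those of Pecam1, and 89.2 to 117% in LPS and 87.3 to 132% in PBS of those of Emcn. Against Cdh5 the Cldn5 counts were 11.9 to 26.0% in LPS and 21.3 to 41.6% in PBS, and the groups overlapped in each of these ratios. The part of endothelial content in the Cldn5 result was not tested beyond these values.

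Cldn19, a claudin of kidney tubules and, in mouse, of the Schwann cells of peripheral nerve, was low throughout, with 0.692, 0.282, 0.532 and 0.538 CPM in LPS replicates 1 to 4, against 1.38, 1.78, 1.55 and 1.50 CPM in PBS replicates 1 to 4. Every LPS library was below every PBS library, with a log2 fold change of -1.60 (adjusted p = 0.0127, SE 0.32) that was called whichever library was left out. Of the 7 Schwann cell markers tested, 3 were lower (42.9%, beside 7.45% of all genes), among them Mbp, myelin basic protein (-1.30, adjusted p = 0.0115), and 0 were higher. Their summed level was 158 to 216 CPM in LPS and 262 to 373 CPM in PBS. Within a library, Cldn19 counts were 3.08 to 4.57% in LPS and 3.77 to 5.61% in PBS of Mbp, with overlap, and 4.82 to 6.81% in LPS and 11.9 to 15.4% in PBS of periaxin (Prx), with none. The part of nerve content in the Cldn19 result was not tested beyond these values.

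The claudins that seal most epithelia were not called. Cldn1, required for the barrier of the epidermis in mouse, had 52.3, 50.3, 102 and 98.9 CPM in LPS replicates 1 to 4, against 127, 142, 96.3 and 126 CPM in PBS replicates 1 to 4. LPS replicates 1 and 2 held about as much as each other and less than every PBS library, whereas LPS replicates 3 and 4 were within the PBS range, and the log2 fold change was -0.70 (adjusted p = 0.0982, SE 0.26). DESeq2 and the weighted limma-voom fit called Cldn1. Cldn3, Cldn4 and Cldn7 had log2 fold changes of -0.41 (adjusted p = 0.288, SE 0.25), -0.39 (adjusted p = 0.454, SE 0.33) and -0.10 (adjusted p = 0.531, SE 0.10). Cldn7 was steady, with 157 to 194 CPM in LPS against 172 to 217 CPM in PBS, and Cldn4 spread widely, with 85.9 to 182 CPM in LPS against 94.0 to 262 CPM in PBS.

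Of the claudins that form ion pores or regulate ion flow, only Cldn19, described above, was called. Cldn2, a cation and water pore of leaky epithelia, had 5.78, 3.25, 1.11 and 5.53 CPM in LPS replicates 1 to 4, against 7.64, 9.53, 6.92 and 8.84 CPM in PBS replicates 1 to 4. Its groups did not overlap, LPS replicate 3 was far below the other LPS libraries, and the log2 fold change was -1.07 (adjusted p = 0.126, SE 0.43). Cldn10, an ion pore with variants of different selectivity, had 17.4 to 37.9 CPM in LPS against 29.3 to 63.4 CPM in PBS (-0.65, adjusted p = 0.168), Cldn8, a partner of Cldn4 in kidney, 5.01 to 14.1 CPM in LPS against 9.77 to 23.4 CPM in PBS (-0.94, adjusted p = 0.148), and Cldn16, needed for magnesium uptake in kidney, 10.3 to 26.5 CPM in LPS against 15.9 to 25.1 CPM in PBS (-0.25, adjusted p = 0.585). Cldn15, a pore of the intestine, had 1.18 to 2.0 CPM in LPS against 0.743 to 3.01 CPM in PBS (0.06, adjusted p = 0.948). Cldn12 was above PBS in every LPS library, with 23.8 to 25.8 CPM in LPS against 20.3 to 22.8 CPM in PBS, and was not called (0.18, adjusted p = 0.132).

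The remaining claudins were scarce. Cldn22 had 0.456 to 1.19 CPM in LPS against 0.843 to 2.91 CPM in PBS (-1.05, adjusted p = 0.167), Cldn6, a claudin of embryonic epithelia, 0.203 to 1.25 CPM in LPS against 0.230 to 0.665 CPM in PBS (0.70, adjusted p = 0.429), and Cldn11, the claudin of central myelin and Sertoli cells, 0.179 to 0.568 CPM in LPS against 0.246 to 0.396 CPM in PBS (0.34, adjusted p = 0.655). Below the filter, the 4 LPS and 4 PBS libraries held 29 and 19 counts of Cldn9, 10 and 9 of Cldn14, 9 and 17 of Cldn24 and 2 and 7 of Cldn17. Cldn18, a claudin of stomach and lung, had 0 counts in LPS and 15 in PBS, of which PBS replicate 4 held 0.330 CPM and the others at most 0.0743 CPM. Cldn20 and Cldn25 had 0 counts in every library.

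Members were also set against Epcam in the same library, a comparison chosen after the values were seen and given without a test. The called members set against Epcam, all but Cldn5 and Cldn19, did not overlap between groups in this measure. Dsp, Jup, Cldn23 and Nectin2 already did not overlap in CPM. Epcam itself had a log2 fold change of -0.11, so a lack of overlap for them adds little. Marveld3 and Cdh1 overlapped in CPM and did not as a percent of Epcam. Dsp counts were 65.5 to 93.4% in LPS and 99.8 to 148% in PBS of those of Epcam, and Jup counts 46.2 to 59.0% in LPS and 63.5 to 95.3% in PBS. Cldn23 counts were 0.649 to 1.83% in LPS and 2.10 to 3.17% in PBS of Epcam and Marveld3 counts 2.58 to 2.99% in LPS and 3.44 to 4.23% in PBS. For Cdh1, which was not called, they were 49.5 to 57.1% in LPS and 60.3 to 68.2% in PBS, and for Nectin2 27.1 to 30.1% in LPS and 18.1 to 22.7% in PBS. None of these 6 overlapped between groups. The share of all genes without overlap as a percent of Epcam was not computed, so this count has no background beside it. Dsg3 did overlap, with 3.10 to 12.6% in LPS and 9.35 to 22.7% in PBS. Set against the basal keratin gene Krt5, Dsp counts were 13.4 to 17.7% in LPS and 18.6 to 24.4% in PBS, without overlap, and Jup counts 8.11 to 12.1% in LPS and 10.9 to 16.5% in PBS, with overlap. Set against Krt15, Dsp counts were 14.1 to 20.5% in LPS and 19.8 to 26.7% in PBS and Jup counts 10.4 to 13.6% in LPS and 11.7 to 17.2% in PBS, and the groups overlapped for both. Jup was also lower relative to its close relative Ctnnb1, with 41.4 to 51.0% in LPS and 57.6 to 102% in PBS. The part of epithelial content in these results was not tested further.

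**Figure D3:**
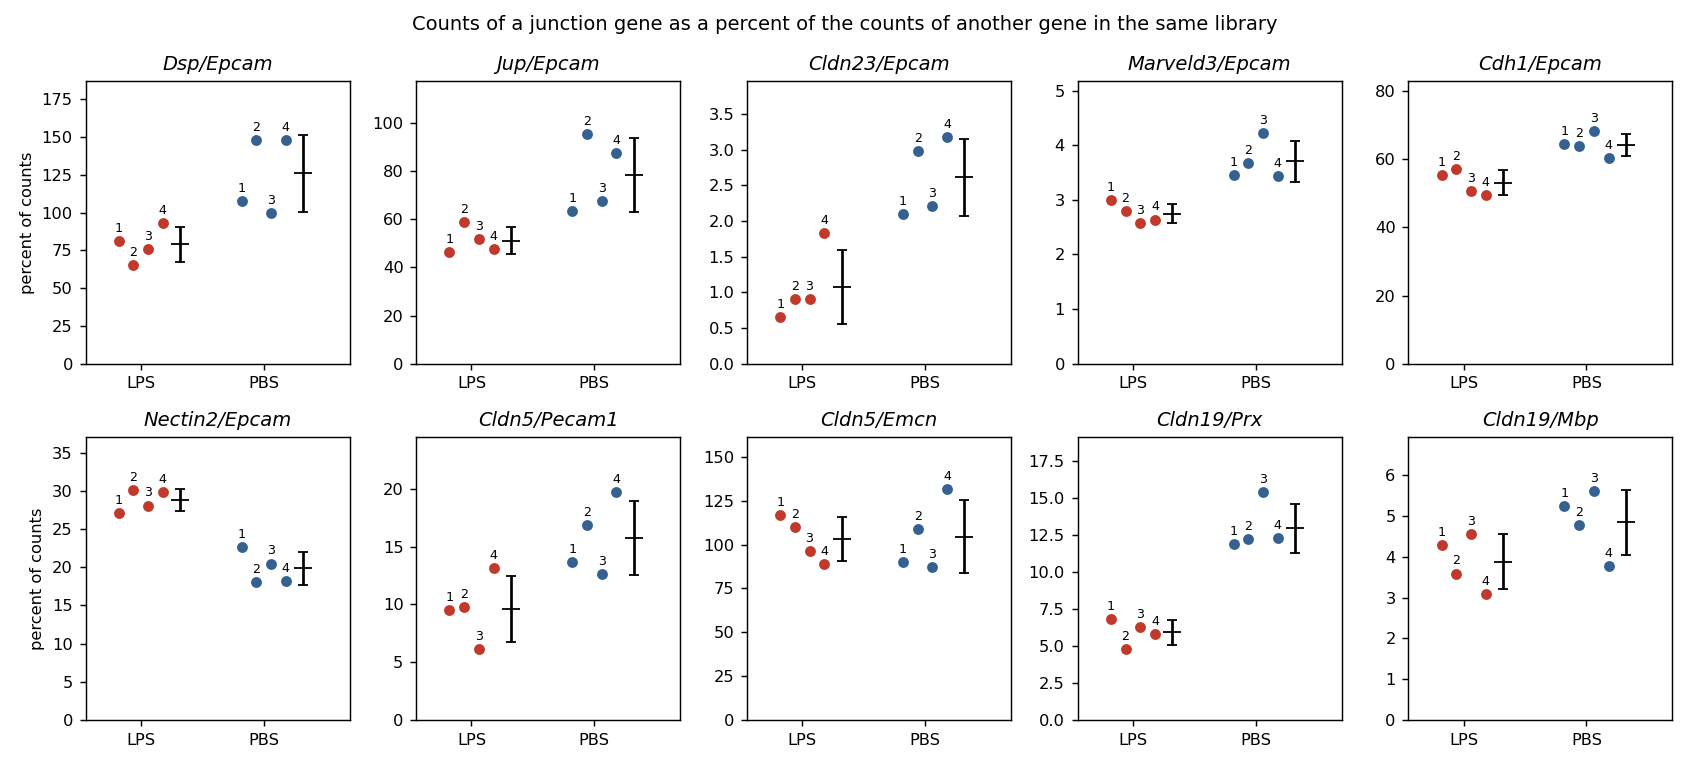
Counts of a junction gene as a percent of the counts of another gene in the same library, for LPS (left) and PBS (right), with replicate numbers and the mean and SD of 4 libraries. The 6 ratios to Epcam do not overlap between groups, nor does Cldn19 to Prx, whereas Cldn5 to Pecam1, Cldn5 to Emcn and Cldn19 to Mbp do.

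Ratios of a junction gene to a relative of the same class within a library, which need no library scaling, asked whether the makeup of the junctions differed. Of 5 ratios, 0 passed an exact two-sided permutation test after adjustment over the 5, in which 4 libraries against 4 cannot give a p below 0.0286. A ratio that reaches this floor alone cannot pass after the adjustment, so the count of 0 does not show that the makeup was unchanged. The log2 ratio of Cdh3 to Cdh1 was -2.11, -2.38, -2.60 and -2.39 in LPS replicates 1 to 4, against -3.06, -2.79, -2.91 and -2.78 in PBS replicates 1 to 4. All LPS values were above PBS, a difference of 0.51 (exact permutation p = 0.0286, the smallest they can give, adjusted p = 0.143). The log2 ratio of Dsg3 to Dsg2 was -1.36, -2.44, -0.43 and -0.62 in LPS replicates 1 to 4, against -0.22, 0.47, -0.89 and 0.04 in PBS replicates 1 to 4. It was lower by point estimate, with a difference of -1.06 (exact permutation p = 0.114, adjusted p = 0.286), and the groups overlapped. The differences were -0.32 for Dsc3 to Dsc2, -0.02 for Pkp1 to Pkp2 and 0.41 for Tjp3 to Tjp1 (exact permutation p = 0.743, 0.886 and 0.229). Leaving out LPS replicate 2 turned the first of these to 0.22 and the Pkp1 to Pkp2 difference to 0.16. The Pkp1 to Pkp2 difference also turned positive without PBS replicate 1, 2 or 4.

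**Figure D4:**
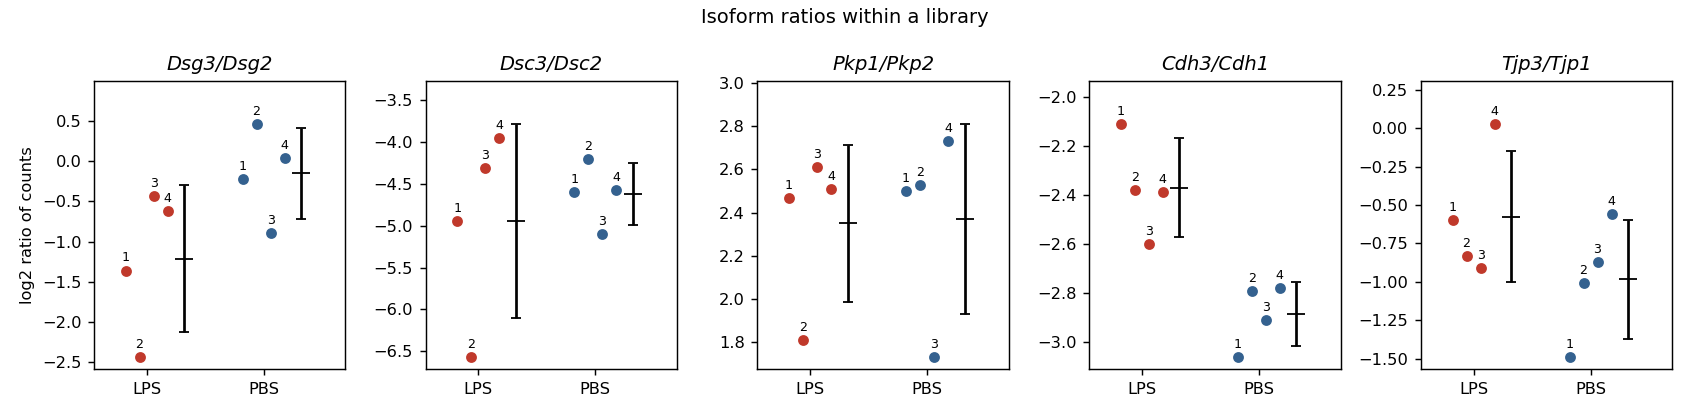
Log2 ratio of the counts of 2 related junction genes within each library, LPS left and PBS right, with replicate numbers and the mean and SD of 4 libraries. Only the ratio of Cdh3 to Cdh1 separates the groups, and LPS replicate 2 has the lowest ratios of Dsg3 to Dsg2 and Dsc3 to Dsc2.

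The members varied between libraries of a group in a shared way. In PBS, replicate 1 was the lowest of its group for 27 of the 43 tested members, against 30.3% of all genes tested. PBS replicate 4 was the highest for 20, against 28.6% of all genes. In LPS, replicate 1 was the highest for 26 members, against 23.0% of all genes. LPS replicate 2 was the lowest for 18, against 24.6% of all genes. LPS replicate 3 was the lowest for 15 of the 43, near its share of 29.1% over all genes. The median deviation of the members from their PBS mean was -0.17, -0.51, -0.45 and -0.22 in LPS replicates 1 to 4 and -0.24, 0.12, -0.06 and 0.14 in PBS replicates 1 to 4 on the log2 scale of CPM plus 0.1. PBS replicate 1 was thus below LPS replicates 1 and 4 in this measure. Without PBS replicate 1 and LPS replicate 2 together, 7 members were lower and 1 higher, beside 2010 calls over all genes in either direction.

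**Figure D5:**
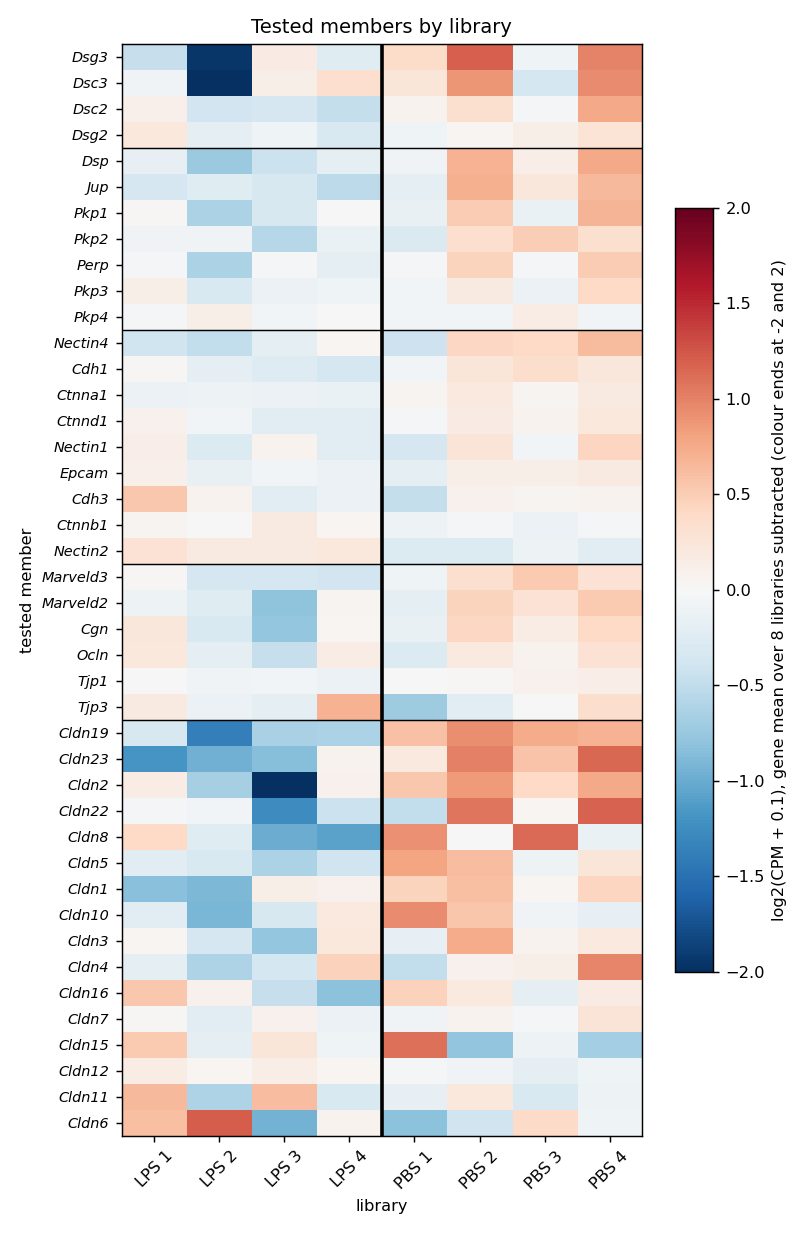
Log2(CPM + 0.1) of 42 of the 43 tested members with the mean of each gene over the 8 libraries subtracted, LPS libraries left of the line and PBS right, in the 5 families. LPS replicate 2 is lowest for Dsg3 and Dsc3, PBS replicates 2 and 4 are highest for Dsp and Jup, and LPS replicate 3 is lowest for Cldn2.

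Other genes of the junction pathway, from lists chosen with earlier results of these data known, were counted in the same test. Of 86 tested, 18 were lower (20.9%) and 7 higher (8.14%), beside 7.45% and 9.49% of all genes, with a median log2 fold change of -0.13. Leaving out libraries moved the number of lower genes to 7 without PBS replicate 2, 9 without LPS replicate 2, 10 without PBS replicate 3 and 11 without PBS replicate 1 and LPS replicate 2 together, and the number of higher genes to 4 without PBS replicate 2 or PBS replicate 3. Calls over all genes in either direction, 2729 with all libraries, were 1467, 2146, 1826 and 2010 in the fits named for the lower genes, in the same order. The summed smooth muscle markers were 3757 to 5473 CPM in LPS and 4528 to 12583 CPM in PBS, with 6 of 8 lower (75.0%) and 0 higher. The part of muscle content in the adherens counts was not tested.

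Around the desmosome, 2 of 7 linked genes were lower (28.6%, beside 7.45% of all genes tested) and 0 higher. Evpl, envoplakin, and Ppl, periplakin, plakins that connect desmosomes with the cornified envelope, fell together with Dsp. Evpl had 121, 119, 84.6 and 156 CPM in LPS replicates 1 to 4, against 213, 334, 280 and 419 CPM in PBS replicates 1 to 4. Its LPS values were all below PBS, with a log2 fold change of -1.37 (adjusted p = 0.0069, SE 0.24), and that of Ppl was -0.73 (adjusted p = 0.0269, SE 0.18). Ppl missed the threshold when PBS replicate 1, 2 or 3 was left out, and when LPS replicate 2 or 4 was.

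Of 17 further adherens junction genes, 6 were lower (35.3%, beside 7.45% of all genes tested) and 2 higher (11.8%, beside 9.49%). Ablim1, an actin-binding LIM protein, had 141, 134, 152 and 171 CPM in LPS replicates 1 to 4, against 259, 323, 262 and 354 CPM in PBS replicates 1 to 4. The groups were far apart, with a log2 fold change of -1.0 (adjusted p = 0.00214, SE 0.13). Actn1, an actin crosslinker, fell by 0.63 on the log2 scale (adjusted p = 0.00504). Afdn, afadin, which joins nectins to actin, lay outside the naming rule and had 103, 87.4, 79.7 and 105 CPM in LPS replicates 1 to 4, against 142, 216, 168 and 219 CPM in PBS replicates 1 to 4. It was lower in every LPS library, with a log2 fold change of -0.99 (adjusted p = 0.00514, SE 0.16) that was called whichever library was left out. The genes that rose were Cdh11, a mesenchymal cadherin (0.96, adjusted p = 0.0163), and Lima1, an actin-bundling protein (0.56, adjusted p = 0.029), named here after inspection of the values. Cdh11 was not called without PBS replicate 2, and Lima1 was not when the first or the third library of either group was left out. Fibroblast markers also differed, 4 of 8 higher and 0 lower, with summed levels of 17119 to 27159 CPM in LPS and 12252 to 15406 CPM in PBS, and their part in the Cdh11 value was not tested.

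Of 11 other tight junction membrane proteins, 4 were lower (36.4%, beside 7.45% of all genes tested) and 0 higher. Ildr2, an angulin of cell corners, fell by 2.71 (SE 0.45, adjusted p = 0.00553), with 0.148 to 0.513 CPM in LPS against 1.41 to 2.18 CPM in PBS, and Igsf5, a junctional adhesion molecule, by 0.54 (adjusted p = 0.00777), with 20.0 to 26.3 CPM in LPS against 33.1 to 35.2 CPM in PBS. Both were called whichever library was left out. Of 17 scaffold and polarity genes, 4 were lower (23.5%) and 0 higher, led by the atypical kinase Prkcz (-0.53, adjusted p = 0.0258) and Cgnl1, paracingulin (-0.54, adjusted p = 0.0439). Prkcz missed the threshold when any library but the first of each group was left out, and Cgnl1 when any PBS library or LPS replicate 1 or 2 was.

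Of 16 tested transcription factors of epithelial and mesenchymal state, 2 were lower (12.5%, beside 7.45% of all genes tested) and 1 higher (6.25%, beside 9.49%). Called in either direction were 18.8%, near the 16.9% of all genes. Klf4, a factor of epithelial differentiation that also acts in other cells, had 289.7, 316, 264 and 298 CPM in LPS replicates 1 to 4, against 379, 535, 493 and 642 CPM in PBS replicates 1 to 4. Its LPS values were all below PBS, with a log2 fold change of -0.81 (adjusted p = 0.00957, SE 0.15). Grhl1, a Grainyhead-like factor that in mouse controls desmosomal cadherin genes of the skin, had 11.9, 9.98, 26.0 and 30.8 CPM in LPS replicates 1 to 4, against 49.5, 54.6, 46.7 and 65.6 CPM in PBS replicates 1 to 4. LPS replicates 1 and 2 were lowest, and the log2 fold change was -1.46 (adjusted p = 0.0248, SE 0.35). Grhl1 missed the threshold when PBS replicate 2 or 4 or LPS replicate 1 was left out. Twist1, a mesenchymal factor named after inspection of the values, rose by 0.59 (adjusted p = 0.0394), and missed the threshold when any library but the first of each group was left out. The repressors Snai1, Snai2, Zeb1 and Zeb2 had log2 fold changes of 0.33, 0.03, 0.14 and 0.35 and were not called (edgeR adjusted p = 0.463, 0.937, 0.506 and 0.157).

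Of 8 tested proteases that can cleave junction proteins, 3 were higher (37.5%, beside 9.49% of all genes tested) and 0 lower. Mmp7, matrilysin, had 44.3, 69.6, 34.2 and 13.0 CPM in LPS replicates 1 to 4, against 3.63, 1.68, 4.12 and 7.34 CPM in PBS replicates 1 to 4. Every LPS library was above every PBS library, a rise of 3.27 (SE 0.57, adjusted p = 0.00728). Adam17, a sheddase of membrane proteins that lay outside the naming rule, rose by 0.63 (adjusted p = 0.0129) and Mmp9 by 7.06 (adjusted p = 0.0004), while Adam10, which sheds E-cadherin, had 127 to 152 CPM in LPS against 119.6 to 164 CPM in PBS (-0.09, adjusted p = 0.638). Leukocyte markers were higher for 7 of 10, with summed levels of 633 to 1661 CPM in LPS and 187 to 238 CPM in PBS, and their part in the protease values was not tested. Of 10 contractile and kinase regulators of junctions, 1 was higher, the kinase Prkca (0.39, adjusted p = 0.0251), and 0 lower. Prkca missed the threshold when PBS replicate 2 or 3 was left out, and when LPS replicate 1 or 4 was.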

How the data were processed

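RNA of 8 cervix libraries, 4 LPS and 4 PBS, was sequenced after TRIzol extraction and library construction with the VAHTS Universal V6 kit, per the labels' protocols. The authors deposited one table of unnormalised counts with gene symbols as rows. The submitters' processing notes list HISAT2, HTSeq, fastp, R 3.2.0 and, as the genome, mRatBN7.2. Neither annotation nor strand setting was given in the sources used here, and counts of overlapping genes cannot be told apart: in RefSeq's GRCr8 table Jup overlaps the unnamed gene LOC120095292, Tjp3 overlaps Apba3, Pkp3 Sigirr, Ctnna1 Lrrtm2 and Cldn20 Tfb1m, and Cgn, Cldn18, Dsg2, Marveld2, Nectin1, Ocln, Pkp2, Pkp4 and Tjp1 overlap other entries. The other called members overlap none. Columns were matched through the library names, and nothing shows whether each library was 1 animal, so p-values measure the spread between these libraries. No 2 libraries of a group agreed within sampling noise.

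Genes were filtered with filterByExpr, scaled by TMM and tested with edgeR 4.0.16 in R 4.3.3 (robust quasi-likelihood F test, no covariate). The SE is the log2 fold change divided by the square root of F. Alternatives were RLE and upper-quartile scaling, other filters, DESeq2 1.42.0, limma-voom 3.58.1, left-out libraries and a replicate block. Isoform ratios used counts plus 0.5. Members, families, marker lists, pathway lists and tests were chosen with earlier results of these data known. Values per library were given for called members with a mean of at least 1 CPM, for Cdh1, Epcam, Ocln, Tjp1, Dsp, Jup, Ctnnb1 and Cldn5, and for further members named after their values were seen. Other pathway genes named were the 2 with the lowest adjusted p among those called in each list and, outside that rule, Afdn, Cdh11, Lima1, Twist1, Adam17, Adam10, Snai1, Snai2, Zeb1 and Zeb2. Values of 1 tested member and of some marker genes are not reported here. The fit was tested on simulated data. Counting intervals and floors cover counting error only.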

Additional observations from a re-analysis of the deposited data

Results flagged for a closer look

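Within each group of 4 libraries, 86 sets of values (43 tested members in LPS and PBS) were checked for a library whose gap to its nearest neighbour exceeded Dixon's 95% critical share of the whole range. Chance alone sets apart about 1 in 20 such sets, and 4 were found. Marveld3 stood at 16.9 CPM in LPS replicate 1, and the remaining LPS libraries at 12.7 to 13.2 CPM. Pkp2 stood at 15.4 CPM in LPS replicate 3, against 20.8 to 21.7 CPM in the others. Cdh3 stood at 35.3 CPM in PBS replicate 1, against 51.5 to 52.1 CPM in the other PBS libraries. Pkp4 stood at 149 CPM in PBS replicate 3, against 129 CPM in each of the other PBS libraries.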

How the results depend on the processing

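Nectin2, the higher member, was called under every alternative run. The 6 lower members were 11 with DESeq2 and 2 with the replicate block (Cldn23 and Cldn5), and ran from 1 to 9 with 1 library left out. Calls over all genes in either direction moved too, from 2729 to 4188 with DESeq2 and to 1996 with the replicate block. The 18 lower and 7 higher pathway genes were 27 and 9 with DESeq2, and the lower ones 11 with the replicate block and 11 without PBS replicate 1 and LPS replicate 2 together, and ran from 7 to 18 with 1 library left out, and the higher ones from 4 to 7. The replicate numbers do not pair the libraries: same-numbered deviations correlated at -0.134, -0.181, -0.087 and 0.208, and not every library correlated best with its own number. The fourth LPS library carries the number 5 in its library name and the fourth PBS library the number 4, so that pair, and the block there, join different library numbers. With 1 library left out, the members' median log2 fold change ran from -0.49 to -0.28, and the ratio differences from -1.32 to -0.65 (Dsg3 to Dsg2), -0.65 to 0.22 (Dsc3 to Dsc2), -0.24 to 0.16 (Pkp1 to Pkp2), 0.43 to 0.59 (Cdh3 to Cdh1) and 0.21 to 0.55 (Tjp3 to Tjp1). With both libraries left out, Dsc3 to Dsc2 was 0.22 and Pkp1 to Pkp2 0.20. The signs of 3 members that were not called turned with 1 library left out, within -0.04 to 0.24 for Cdh3, -0.16 to 0.69 for Cldn15 and -0.05 to 0.05 for Pkp4. The causes were not tested. With 3 libraries against 4, an exact test cannot give a p below 0.0571.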
